A study of Mus musculus with 7 samples.

Results

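The IGHV3 family is a group of mouse immunoglobulin heavy chain V genes, the germline segments that are joined to a D and a J segment to encode the variable part of an antibody heavy chain. A B cell was counted as an IGHV3 cell when it carried exactly 1 productive heavy chain and the first V gene named for that chain, with the allele removed, was IGHV3-1, IGHV3-3, IGHV3-4, IGHV3-5, IGHV3-6 or IGHV3-8. This gave 763 IGHV3 cells among 17381 cells with exactly 1 heavy chain, and the 16618 remaining cells are called other IGHV cells.

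B cell receptors were sequenced from single cells of deep cervical (dCLN), superficial cervical (sCLN) and inguinal (iLN) lymph nodes of female mice aged 10 to 11 months. The mice were wild type (WT) or 5xFAD, a transgenic line used as a model of Alzheimer's disease, whose transgenes are driven by the neuronal Thy1 promoter. Each node and genotype was 1 library, which gave 6 libraries, and a library of all nodes and both genotypes mixed was kept apart. Cells of several tubes had been tagged with up to 4 hashtag antibodies and pooled, and no animal was assigned to a cell here. A library was therefore the unit of comparison, p-values measure only the spread between these libraries, and libraries of 1 genotype may share animals. The 6 libraries held 2107 to 3904 cells with 1 heavy chain, 99906 to 312484 immunoglobulin UMIs (molecules counted by their tags), and a median of 9 to 13 heavy chain UMIs per cell. Barcodes with several heavy chains made up 2.59% to 5.62% of barcodes with a heavy chain and were left out. Of 17206 barcodes, 174 occurred in more than 1 library. Among IGHV3 cells 19 had such a barcode, and 0 of the 19 had the same heavy junction in both libraries.

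In the mouse heavy chain locus the V genes lie in a long array upstream of the D, J and constant genes, and any of them can be brought to a D-J join by the RAG recombinase. The choice of V gene fixes the first and second complementarity-determining regions (CDR1 and CDR2), the germline loops that touch antigen, while CDR3 is made anew at the V-D-J join. Naive B cells carry unmutated IgM and IgD, and germinal centre cells change base by base through somatic hypermutation and may switch to IgG or IgA.

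In GENCODE M21 on GRCm38 (the build also called mm10) all 6 members lie on the minus strand of chromosome 12, each annotated as an immunoglobulin V gene. IGHV3-1 (ENSMUSG00000093838.1) spans 113964388 to 113964818 and is the member nearest to the J genes, 535 kb from IGHJ1. IGHV3-3 (ENSMUSG00000094029.2) spans 114196439 to 114196875, 767 kb from IGHJ1. The other members follow close together: IGHV3-4 at 114253617 to 114254051, IGHV3-5 at 114262652 to 114263087, IGHV3-6 (ENSMUSG00000076672.7) at 114288152 to 114288582 and IGHV3-8 at 114322327 to 114322801. Counted from the D side among 113 V genes they are the 24th, 35th, 37th, 38th, 39th and 41st.

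The germline V exons that the deposited alignments used were found whole in the GENCODE transcripts, and they show how close the members are. The V regions below run 5′ to 3′ from the first base of framework 1 to the conserved cysteine codon before CDR3. They are shown because most IGHV3 cells used IGHV3-6 or IGHV3-1. In IGHV3-6 the capitals mark CDR1 and CDR2, and in IGHV3-1 they mark the 20 bases that differ from IGHV3-6.
IGHV3-6: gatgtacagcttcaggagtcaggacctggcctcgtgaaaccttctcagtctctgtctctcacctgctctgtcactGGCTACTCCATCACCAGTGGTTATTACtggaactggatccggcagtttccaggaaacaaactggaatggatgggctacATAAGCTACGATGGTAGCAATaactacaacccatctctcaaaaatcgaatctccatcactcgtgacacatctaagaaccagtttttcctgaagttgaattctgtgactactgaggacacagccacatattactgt
IGHV3-1: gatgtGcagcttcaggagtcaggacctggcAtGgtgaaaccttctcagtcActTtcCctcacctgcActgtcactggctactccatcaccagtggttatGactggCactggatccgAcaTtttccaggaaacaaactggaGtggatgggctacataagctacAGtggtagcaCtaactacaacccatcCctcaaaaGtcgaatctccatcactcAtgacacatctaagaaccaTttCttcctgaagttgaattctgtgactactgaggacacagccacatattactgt

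IGHV3-1 was 93.1% identical to IGHV3-6 over 288 bases, with 1 difference in CDR1 and 3 in CDR2. The other members with cells were 85.4% (IGHV3-4), 85.1% (IGHV3-3) and 83.3% (IGHV3-5) identical to IGHV3-6. In CDR1, extra bases included, IGHV3-4 differed from IGHV3-6 at 12 bases, IGHV3-5 at 14 and IGHV3-3 at 4. The CDR1 sequences are shown because the V gene alone fixes this loop, and capitals mark bases that differ from IGHV3-6 at the same place, extra bases included.
IGHV3-6 CDR1: ggctactccatcaccagtggttattac
IGHV3-1 CDR1: ggctactccatcaccagtggttatGac
IGHV3-3 CDR1: ggctTctccatcaAcagtgAttGttac
IGHV3-4 CDR1: ggctactcTatcacTAATGgtAAtCaCtGG
IGHV3-5 CDR1: ggcATTtccatcaccACTGgAAAttaCAGG
The CDR1 of IGHV3-4 and IGHV3-5 was 30 bases long and that of the others 27. In CDR2, of 21 bases in every member, IGHV3-6 differed from each of the others at 3 or more places, as the capitals show again.
IGHV3-6 CDR2: ataagctacgatggtagcaat
IGHV3-1 CDR2: ataagctacAGtggtagcaCt
IGHV3-3 CDR2: aCaTTctacAGtggtaTcaCt
IGHV3-4 CDR2: ataagctCcAGtggtagcaCt
IGHV3-5 CDR2: ataTActacAGtggtaCcaTt

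IGHV3-6 made up most of the family. It was the V gene of 606 cells, 79.4% of the IGHV3 cells (exact 95% interval 76.4% to 82.2%) and 3.49% of all cells. IGHV3-1 followed with 111 cells, 14.5% of the IGHV3 cells (12.1% to 17.3%). IGHV3-3 was used by 21 cells, IGHV3-5 by 13 and IGHV3-4 by 12. IGHV3-8 was called in 0 cells and in 0 contigs of any table used. This allows up to 0.0173% of the 17381 cells only if the germline set behind the calls holds IGHV3-8, which is not known. A set without the gene would give 0 calls whatever its use. All 763 cells had the same V gene in the deposited 10x call and in 0 of them did the call name several genes. In 110 unswitched IGHV3-1 cells and 584 unswitched IGHV3-6 cells, 0 positions differed from the germline sequences above in the majority of cells.

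The family took between 4.07% and 4.89% of each library. IGHV3 cells were 4.21% of the WT dCLN cells (142 of 3374, exact 95% interval 3.56% to 4.94%) and 4.89% of the 5xFAD dCLN cells (191 of 3904, 4.24% to 5.62%). In the superficial cervical nodes they were 4.16% in WT (143 of 3440, 3.51% to 4.88%) and 4.07% in 5xFAD (96 of 2356, 3.31% to 4.95%). In the inguinal nodes they were 4.68% in WT (103 of 2200, 3.84% to 5.65%) and 4.18% in 5xFAD (88 of 2107, 3.36% to 5.12%). From high to low the order was 5xFAD dCLN, WT iLN, WT dCLN, 5xFAD iLN, WT sCLN and 5xFAD sCLN, and no library's interval stood apart from that of any other. Intervals here cover counting error only, and cells of 1 clone are not independent.

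**Figure D1:**
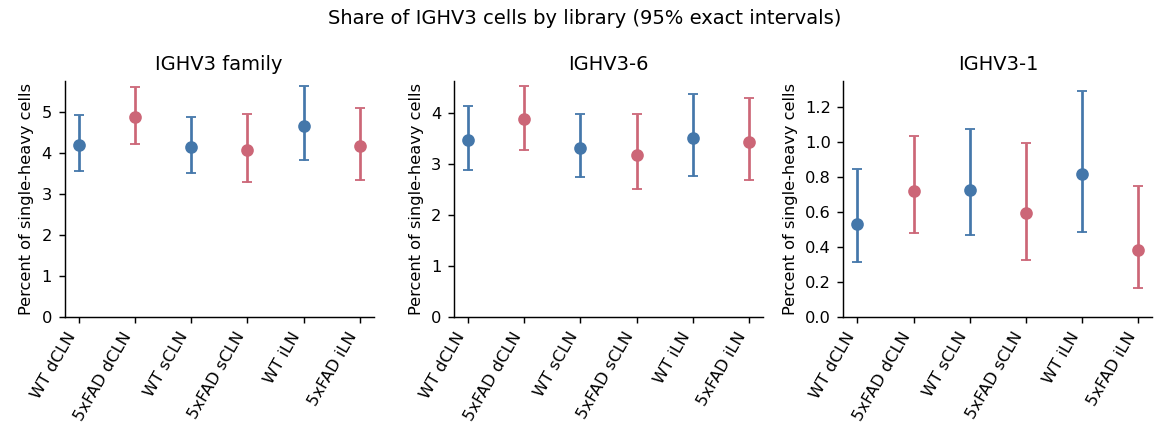
Share of cells with 1 heavy chain (vertical axes, percent) that used any IGHV3 gene, IGHV3-6 or IGHV3-1 in each of the 6 libraries (horizontal axes), WT in blue and 5xFAD in red, with exact 95% intervals as bars. The family points lie between 4.07% and 4.89% and all their intervals overlap.

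Among 14 or 15 V families per library, IGHV3 ranked 6th in the 5xFAD dCLN and 7th in the other 5 libraries. IGHV3-6 alone was the 3rd most used of 88 to 93 heavy V genes in 4 libraries and the 4th in WT sCLN and 5xFAD iLN. The most used gene in each library was IGHV1-26, a member of the largest mouse family, at 5.54% to 6.95%.

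The difference between 5xFAD and WT had no common direction over the nodes. In the deep cervical nodes 5xFAD minus WT was 0.684 percentage points (95% interval -0.300 to 1.66). For the superficial cervical nodes the difference was -0.0823 points (-1.13 to 1.01), and for the inguinal nodes -0.505 points (-1.77 to 0.761). The mean over the 3 nodes was 0.0321 ± 0.603 (SD, n = 3 nodes; higher in 5xFAD in 1 of 3), with an exact p of 1.00, two-sided, from flipping the signs of the 3 differences, where 0.250 is the smallest possible. For IGHV3-6 alone the differences were 0.400 (dCLN, -0.491 to 1.28), -0.131 (sCLN, -1.07 to 0.846) and -0.0828 points (iLN, -1.21 to 1.05). IGHV3-1 was 0.818% of cells in the WT iLN and 0.380% in the 5xFAD iLN, a difference of -0.438 points (-0.957 to 0.0568), while its dCLN and sCLN differences were 0.184 (-0.207 to 0.568) and -0.133 points (-0.569 to 0.343). Over all heavy V genes at 1% or more of a library, the exact intervals of WT and 5xFAD stood apart in 2 of 120 pairs of a gene and a node (1.67%), and in 0 of the 3 pairs of IGHV3-6, the member above that level.

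Cervical nodes drain the head and inguinal nodes the lower body, and the former were set against the latter within each genotype. In WT the family share was 4.18% in the cervical nodes (285 of 6814 cells) and 4.68% in the inguinal nodes, a difference of -0.499 points (95% interval -1.57 to 0.484). In 5xFAD it was 4.58% (287 of 6260) and 4.18%, a difference of 0.408 points (-0.662 to 1.39). IGHV3-6 differed by -0.110 points in WT (-1.06 to 0.750) and 0.193 in 5xFAD (-0.783 to 1.08). Each interval includes 0, and with 1 library per node and genotype these differences have no replicate check.

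The V genes whose shares over the 6 libraries were most like that of the IGHV3 family were IGHV1-82 (Pearson r = 0.746), IGHV5-6 (0.665) and IGHV1-18 (0.642), out of 53 genes. Each r describes 6 points, and the shares within a library sum to a fixed total.

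Most IGHV3 cells were unswitched. Of 761 IGHV3 cells with a constant region call, 572 (75.2%) were IgM and 164 (21.6%) IgD, and in other IGHV cells these shares were 75.8% and 20.9% of 16417. The 25 switched cells (3.29%, exact 95% interval 2.14% to 4.81%) were 8 IgG1, 8 IgG2c, 6 IgG2b, 2 IgA and 1 IgG3 cell, against 538 of 16417 switched other IGHV cells (3.28%). IGHV3-6 supplied 20 of them (of 604 cells), IGHV3-3 supplied 4 (of 21) and IGHV3-1 supplied 1 (of 111). Among the 12 IGHV3-4 and 13 IGHV3-5 cells 0 were switched.

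By library, 5 of 140 IGHV3 cells were switched in the WT dCLN (3.57%, 1.17% to 8.14%) and 12 of 191 in the 5xFAD dCLN (6.28%, 3.29% to 10.7%). In the superficial cervical nodes 4 of 143 were switched in WT (2.80%, 0.767% to 7.01%) and 1 of 96 in 5xFAD (1.04%, 0.0264% to 5.67%). In the inguinal nodes 3 of 103 were switched in WT (2.91%, 0.605% to 8.28%) and 0 of 88 in 5xFAD, which allows up to 3.41%. The 5xFAD dCLN was thus the highest and the 5xFAD iLN the lowest, with overlapping intervals. A group of 6 related IGHV3-3 cells, 4 of them switched, lay in the 5xFAD dCLN, and without it 8 of 185 cells were switched there (4.32%, 1.89% to 8.34%). Against other IGHV cells of the same library the switched share of IGHV3 was lower in 4 of 6 libraries, by -0.234 ± 1.74 points on average (SD, n = 6 libraries; exact sign-flip p = 0.781, adjusted 0.875 over 14 measures).

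V mutation, the percent of V bases that differ from the germline, was higher on average in switched than in unswitched cells, and the classes overlapped. It averaged 2.30% with an SD of 2.28 over the 25 switched IGHV3 cells (median 2.03%, 0 mismatches in 4 cells) and 0.0231% over 735 unswitched ones (0 mismatches in 707). Other IGHV cells had 2.64% (SD 2.49 over 538 cells) and 0.0233%. The highest value, 8.56%, belonged to an IgA cell of the WT dCLN that used IGHV3-6. The 20 switched IGHV3-6 cells averaged 2.70% and the 4 switched IGHV3-3 cells 0.339%. In switched WT cells the mean was 2.89% (12 cells) and in switched 5xFAD cells 1.75% (13 cells), or 2.38% (9 cells) without the IGHV3-3 group. Over the 5 libraries with switched IGHV3 cells the difference from other IGHV cells was 0.754 ± 2.35 points (SD, n = 5 libraries; higher in 3 of 5; exact p = 0.812, adjusted 0.875). It was -0.265 points without the 5xFAD sCLN, whose mean of 7.46% rests on 1 cell.

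**Figure D2:**
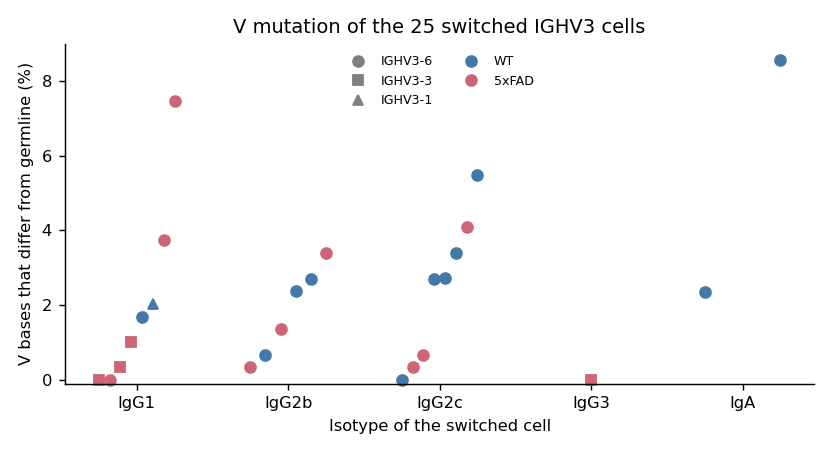
V mutation (vertical axis, percent of V bases that differ from germline) of each of the 25 switched IGHV3 cells by isotype (horizontal axis, points spread sideways for visibility), with the shape giving the V gene and the colour the genotype. The IGHV3-3 squares lie at or under 1.02% and the highest point is the IgA cell at 8.56%.

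Of the 735 unswitched IGHV3 cells, 5 had a mutation of 1% or more, and 4 of the 5 were IgM. The highest was an IgM cell of the 5xFAD dCLN with IGHV3-6 and 3.73%. Mismatches of the switched IGHV3 cells fell into CDR1 and CDR2 in 51 of 166 cases (30.7%), where these loops make up 16.7% of the bases. In switched other IGHV cells the share was 27.7% of 4072 mismatches. The codon meaning changed in 72.3% of the IGHV3 mismatches and 70.7% of the others.

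The 20 switched IGHV3-6 cells carried 156 mismatches made of 116 different substitutions, and a few places were hit repeatedly. Positions are counted from 1 at the first base of the V region printed above, and the germline base comes first. Position 170, in CDR2, differed in 9 of the 20 cells, each from a different clone, with G170A in 4 cells and G170T in 4. It is the middle base of the agc codon near the end of the IGHV3-6 CDR2, within tagca. Position 262 in framework 3 differed in 6 cells, as A262T in 3 and A262G in 3, and A284T occurred in 4. The positions were singled out after their counts were seen, and cells at 1 position share the germline sequence around it.

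Next the joins were compared. Of the 763 IGHV3 cells 198 used IGHJ1 (26.0%, exact 95% interval 22.9% to 29.2%), 230 IGHJ2 (30.1%), 171 IGHJ3 (22.4%) and 164 IGHJ4 (21.5%). Other IGHV cells used IGHJ1 in 18.5%, IGHJ2 in 33.6%, IGHJ3 in 22.7% and IGHJ4 in 25.3%. IGHJ1 was joined to 34 of 142 IGHV3 cells in the WT dCLN (23.9%) and 66 of 191 in the 5xFAD dCLN (34.6%, 27.8% to 41.8%). It was joined to 20.3% in the WT sCLN, 29.2% in the 5xFAD sCLN, 26.2% in the WT iLN and 15.9% in the 5xFAD iLN. Other IGHV cells lay between 17.6% and 19.5% in every library, so that IGHV3 was above them in 5 of 6 libraries and below in the 5xFAD iLN. The mean difference was 6.41 ± 7.17 points (SD, n = 6 libraries; exact sign-flip p = 0.0938, adjusted 0.438 over 14 measures). By the stricter count of a higher IGHJ1 share in all 6 libraries, 2 of the 55 heavy V genes with 100 or more cells qualified (3.64%), and neither was a member. The family, at 5 of 6, did not meet this count. Several other V genes reached 5 of 6 too, such as IGHV5-16 (15.3 points) and IGHV2-9-1 (8.37 points).

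**Figure D3:**
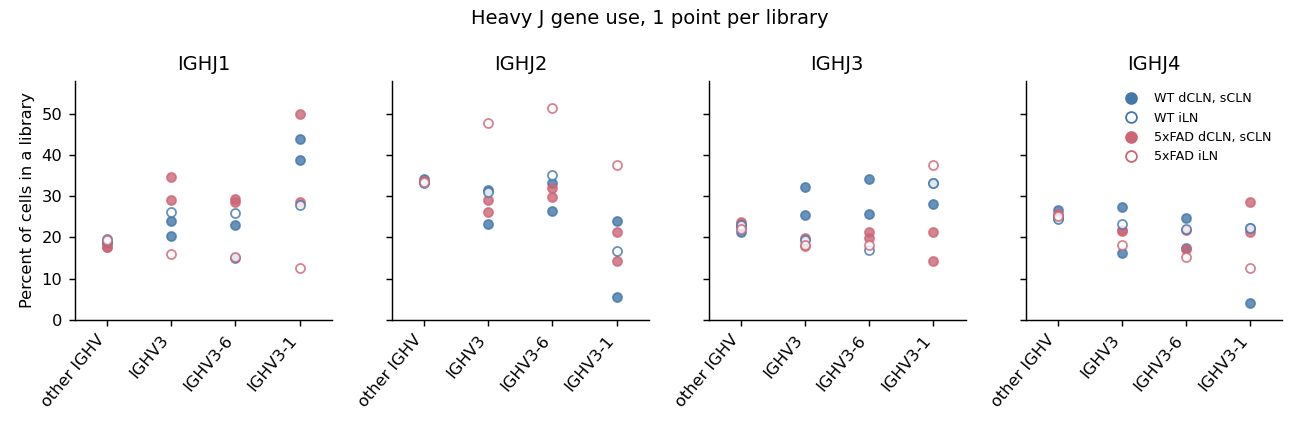
Percent of cells of a library (vertical axis) joined to IGHJ1, IGHJ2, IGHJ3 or IGHJ4 for other IGHV cells, all IGHV3 cells, IGHV3-6 cells and IGHV3-1 cells (horizontal axes), 1 point per library, WT in blue, 5xFAD in red and iLN open. The other IGHV points lie close together, and the IGHJ1 points of IGHV3 range from 15.9% to 34.6%.

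IGHJ4 went the other way, lower in IGHV3 in 5 of 6 libraries (21.4% against 25.2%, difference -3.83 ± 3.46 points; exact p = 0.0625, adjusted 0.438). IGHJ2 use was 23.2% to 31.5% in 5 libraries and 47.7% in the 5xFAD iLN, where other IGHV cells had 33.5%, and the mean difference of -2.06 ± 8.55 points did not pass the test (exact p = 0.562, adjusted 0.787). IGHJ3 differed by -0.524 ± 6.05 points (exact p = 0.938, adjusted 0.938).

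The J genes of the 2 members with 100 or more cells were then set side by side, a comparison chosen after the values were seen. IGHV3-1 joined IGHJ1 in 42 of 111 cells (37.8%, 28.8% to 47.5%) and IGHV3-6 in 140 of 606 (23.1%, 19.8% to 26.7%). Over the libraries this difference was 10.8 ± 13.2 points, higher in 4 of 6 (exact p = 0.188, adjusted 0.383 over 7 measures). IGHJ2 was joined to 5.56%, 14.3%, 24.0%, 21.4%, 16.7% and 37.5% of IGHV3-1 cells in the WT dCLN, 5xFAD dCLN, WT sCLN, 5xFAD sCLN, WT iLN and 5xFAD iLN. The same libraries gave 26.5%, 29.8%, 33.3%, 32.0%, 35.1% and 51.4% for IGHV3-6. IGHV3-1 was thus lower in 6 of 6 libraries, by -14.8 ± 4.47 points (SD, n = 6; exact p = 0.0312, the smallest possible, adjusted 0.109), on 8 to 28 IGHV3-1 cells per library. Among 55 heavy V genes, IGHV3-1 ranked 3rd and IGHV3-6 8th from the top in IGHJ1 use. The 21 IGHV3-3 cells had 9 with IGHJ1, 11 with IGHJ4, 1 with IGHJ2 and 0 with IGHJ3, and 6 of them were the related cells described below.

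IGHD1-1, the D gene most often called, was called in 42.7% of the 670 IGHV3 cells with a D call and in 40.7% of other IGHV cells. IGHD4-1 (11.5%) and IGHD2-4 (11.0%) followed, against 10.9% and 10.8% of other IGHV cells. With IGHJ1 it was called in 60.8% of IGHV3 cells and with the other J genes in 36.2%, and in other IGHV cells the values were 55.0% and 37.3%. The 15 bases below are part of the germline IGHD1-1 gene and the most frequent run of that length in junctions with it, and they recur in the junctions shown further on.
IGHD1-1 run: ttactacggtagtag
It was present in 13.1% of IGHV3 junctions (100 of 763) and 11.9% of the others. Among junctions with IGHJ1 it was in 19.7% of those of IGHV3 (39 of 198, exact 95% interval 14.4% to 25.9%). Those of IGHV3-6 alone had 24.3% (34 of 140, 17.4% to 32.2%). Other IGHV cells had 17.9% (16.6% to 19.3%), and these intervals overlapped. With IGHJ2 the shares were 9.13% in IGHV3 and 11.9% in the others, with IGHJ3 14.6% and 9.22%, and with IGHJ4 9.15% and 9.95%.

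The heavy junction, from the conserved cysteine codon to the conserved tryptophan codon, averaged 42.6 bases in IGHV3 cells and 42.3 in other IGHV cells. The difference was 0.246 ± 0.948 bases, higher in 3 of 6 libraries (exact p = 0.500, adjusted 0.787). N bases are added at the joins by terminal transferase without a template. They were counted here as all bases left between the aligned V, D and J segments, whatever their origin. Without a D call the count can include D bases, and 12.2% of IGHV3 cells and 9.62% of other IGHV cells had no D call. In IGHV3 cells N bases so counted numbered 7.27 on average in the WT dCLN, 6.60 in the 5xFAD dCLN and 6.64 in the WT sCLN. They numbered 6.98 in the 5xFAD sCLN, 6.54 in the WT iLN and 6.45 in the 5xFAD iLN. Other IGHV cells had 7.15 to 7.32. IGHV3 had fewer in 6 of 6 libraries, by -0.506 ± 0.274 bases (exact p = 0.0312, the smallest possible, adjusted 0.438). With 14 measures a measure that alone reaches the smallest p has this adjusted value, so it could not pass. Of 55 heavy V genes 5 were lower in all 6 libraries (9.09%) and 5 were higher in all 6. Neither IGHV3-6 (lower in 5 of 6) nor IGHV3-1 (lower in 4 of 6) was among them. Junctions with 0 N bases were 2.79% of IGHV3 cells and 1.52% of the others on average (higher in 5 of 6 libraries; exact p = 0.156, adjusted 0.525).

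A heavy chain UMI difference moved with the family. The median heavy UMIs per IGHV3 cell were 11 in the WT dCLN, 14 in the 5xFAD dCLN, 13 in the WT sCLN, 14.5 in the 5xFAD sCLN, 12 in the WT iLN and 14 in the 5xFAD iLN. They exceeded those of other IGHV cells in 6 of 6 libraries, by 1.92 ± 0.801 UMIs (exact p = 0.0312, the smallest possible, chosen after seeing the values). Among 55 heavy V genes 15 were higher than the rest in all 6 libraries (27.3%) and 14 were lower in all 6 (25.5%). Between the members, IGHV3-1 cells had 17.7 UMIs and IGHV3-6 cells 12.7 as means of library medians, higher in 6 of 6 (5.00 ± 1.38; exact p = 0.0312, adjusted 0.109). Their part in the other differences was not tested. Cells with 100 or more heavy UMIs numbered 0 of 763 in IGHV3, which allows up to 0.393%, and 68 of 16618 in the others (0.409%). The exact interval for 0 of 763 cells reaches 0.482% and so includes the share of the others. These counts therefore do not set the groups apart.

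The light chain partner completes the binding site. Of the 763 IGHV3 cells 709 had exactly 1 light chain, 42 had several and 12 had 0. The 709 used 75 light chain V genes. The most used were IGKV10-96 (6.10%), IGLV1 (4.08%), IGKV6-17 (3.87%), IGKV12-44 (3.66%) and IGKV6-32 (3.45%), as means over the 6 libraries. Lambda chains were 5.64% of IGHV3 cells and 4.58% of the others (1.06 ± 3.51 points; higher in 4 of 6; exact p = 0.562, adjusted 0.787). Cells with any light chain were 98.3% and 99.0% (-0.724 ± 1.00 points; exact p = 0.188, adjusted 0.525).

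IGKV3-7 was the light chain gene found more often with IGHV3 in every library. It was paired with 3.76% of IGHV3 cells in the WT dCLN, 3.39% in the 5xFAD dCLN, 2.26% in the WT sCLN, 3.33% in the 5xFAD sCLN, 3.12% in the WT iLN and 2.50% in the 5xFAD iLN. Other IGHV cells had 0.961% to 1.60%, so the 6 IGHV3 values lay above all 6 of the others. The difference was 1.89 ± 0.496 points (SD, n = 6; exact p = 0.0312, adjusted 0.438 over 42 light chain V genes), on 22 IGHV3 cells. It was the 1 gene of 42 that was higher in all 6 libraries (2.38%). IGKV9-120 (0.299% against 1.69%, 2 IGHV3 cells) and IGKV2-137 (0.578% against 1.64%, 4 cells) were lower in all 6, 2 of 42 genes (4.76%), with the same adjusted p of 0.438 in the exact test.

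Grouped into V families, which was done after seeing the gene values, the IGKV3 family was paired with 96 of 709 IGHV3 cells (13.5%, 11.1% to 16.3%) and 1334 of 15054 other IGHV cells (8.86%, 8.41% to 9.33%). By library the IGHV3 share was 15.8% in the WT dCLN, 13.0% in the 5xFAD dCLN, 9.77% in the WT sCLN, 16.7% in the 5xFAD sCLN, 13.5% in the WT iLN and 13.8% in the 5xFAD iLN, and other IGHV cells lay between 7.67% and 9.93%. The groups overlapped only through the WT sCLN, and IGHV3 was higher in 6 of 6 libraries by 5.01 ± 2.68 points (exact p = 0.0312, adjusted 0.0885 over 17 families). IGKV6 was also higher in 6 of 6 (2.87 ± 1.54 points), and these 2 were 11.8% of the families. IGKV8, IGKV2, IGKV9 and IGKV14 were lower in 6 of 6 (-2.26, -1.88, -1.66 and -1.20 points), 23.5% of the families, each with an adjusted p of 0.0885 in the exact test. None passed 0.05 after adjustment. With this number of families at 0.0312, the smallest p of the exact test over 6 libraries, none could have passed. The same holds for the light chain V genes above.

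**Figure D4:**
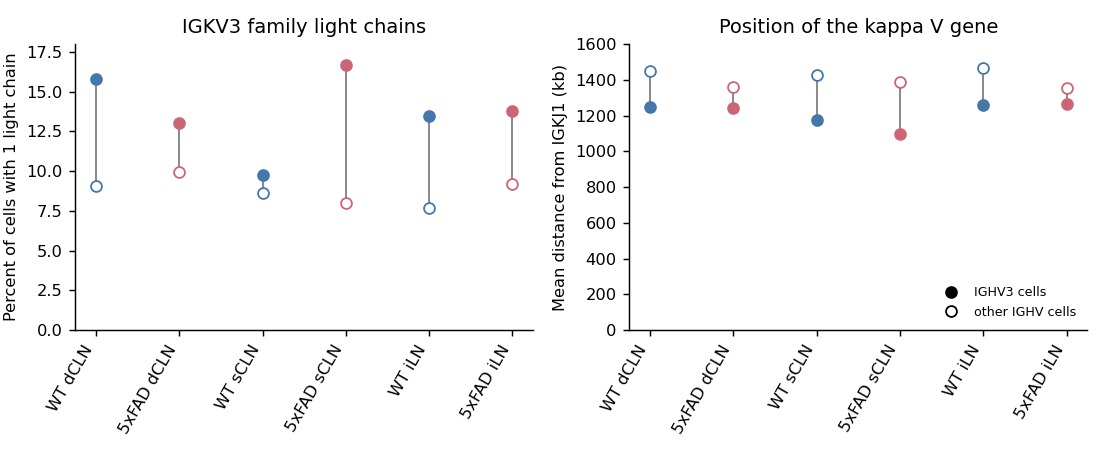
Left, percent of cells with 1 light chain that used an IGKV3 family gene. Right, mean distance in kb of the kappa V gene from IGKJ1 in GRCm38. Filled points are IGHV3 cells and open points other IGHV cells of the same library (horizontal axes), joined by a line, WT in blue and 5xFAD in red. In each of the 6 libraries the filled point is higher on the left and lower on the right.

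In each of the 6 libraries the kappa V genes of IGHV3 cells lay on average nearer to the J genes of the kappa locus than those of other IGHV cells, a measure chosen after the family values were seen. Kappa V genes join the J genes over a long stretch of chromosome 6, and all 15040 kappa cells could be placed in GENCODE M21. The mean distance from IGKJ1 in IGHV3 cells was 1245 kb in the WT dCLN, 1240 in the 5xFAD dCLN, 1175 in the WT sCLN, 1095 in the 5xFAD sCLN, 1259 in the WT iLN and 1267 in the 5xFAD iLN. Other IGHV cells had 1352 to 1464 kb, so that the groups did not overlap. The difference was -193 ± 78.0 kb (SD, n = 6 libraries; nearer in 6 of 6; exact p = 0.0312, the smallest possible, not adjusted). This measure restates the light chain pairings already grouped into families above, so it is not a separate result. Of 55 heavy V genes 4 were nearer than the rest in all 6 libraries (7.27%), among them IGHV3-6 (1186 kb, 4th nearest of 55). Another 6 were farther in all 6 libraries (10.9%). IGHV3-1 averaged 1345 kb, 18th, and was nearer in 4 of 6. Distances vary widely among cells, with an SD of 845 to 979 kb within the IGHV3 cells of a library.

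Clones were cells of 1 library with the same V gene, J gene and junction length whose junctions were joined by single linkage at up to 0.15 differences per base. The 6 libraries held 52 IGHV3 clones of 2 or more cells, 47 of them with 2 cells. Together they held 114 of the 763 cells (14.9%, 12.5% to 17.7%). By library 26 of 142 IGHV3 cells were in clones in the WT dCLN (18.3%), 36 of 191 in the 5xFAD dCLN (18.8%), 21 of 143 in the WT sCLN (14.7%), 12 of 96 in the 5xFAD sCLN (12.5%), 17 of 103 in the WT iLN (16.5%) and 2 of 88 in the 5xFAD iLN (2.27%, 0.276% to 7.97%). The 5xFAD iLN was the lowest, while other IGHV cells of that library had 10.0%. Its interval lay below those of the other libraries except the 5xFAD sCLN. These intervals treat cells of a clone as independent and are too narrow to set libraries apart. The 2 cells of the 5xFAD iLN were 1 clone, and the 17 of the WT iLN were 8 clones. The difference from other IGHV cells was 1.25 ± 5.91 points, higher in 3 of 6 libraries (exact p = 0.750, adjusted 0.875).

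Most of these clones were pairs of unswitched cells. In 28 of the 52 all cells had identical heavy and light junctions, and in 16 the light chains differed. These numbers were 10 and 2 of 13 clones in the WT dCLN but 3 and 10 of 15 in the 5xFAD dCLN. They were 6 and 3 of 10 in the WT sCLN and 2 and 1 of 5 in the 5xFAD sCLN. The WT iLN had 6 and 0 of 8, and the 5xFAD iLN 1 and 0 of 1. The clone shares of the libraries thus count unlike groups. Switched cells occurred in 1 clone. That clone lay in the 5xFAD dCLN and joined IGHV3-3 to IGHJ1 with the light chain IGKV4-86 and IGKJ5. It had 3 IgG1 cells, 1 IgG3 cell and 2 IgM cells. IGKV4-86 was rare, with 26 of 15763 cells (0.165%). The heavy junctions show the relation: 5 cells had the first sequence, and 1 IgM cell the second, with capitals on the bases that differ. The light junction was the same in all 6.
IGHV3-3 clone, heavy junction of 5 cells: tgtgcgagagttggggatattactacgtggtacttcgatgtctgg
IGHV3-3 clone, heavy junction of 1 IgM cell: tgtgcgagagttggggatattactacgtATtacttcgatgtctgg
IGHV3-3 clone, light junction: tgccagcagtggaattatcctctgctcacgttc
Counted from the first junction base, that IgM cell had G29A and G30T. In the V region 3 of the 6 cells had 0 substitutions. An IgG1 cell had A169C in CDR2, another IgG1 cell had A145G, G150C and A210G, and the remaining IgM cell, with 48 heavy UMIs, had C159A, T225C and T247C, counted from the first V base. No V substitution occurred in more than 1 of these cells, and none reached a mutation above 1.02%. The light V regions differed from germline at 0, 1, 1, 3, 3 and 6 of 281 bases, and the 6 belonged to the IgG3 cell.

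The other clones of more than 2 cells were unmutated IgM or IgD cells that used IGHV3-6. In the WT iLN 3 cells shared an identical heavy junction of 42 bases with IGHJ2 and the same IGKV8-21 light chain. In the WT sCLN 3 cells with IGHJ2 had 3 different junctions of 33 bases and 3 light chains. Those of the 5xFAD sCLN, with IGHJ1 and IGHD1-1, show how similar junctions came with 4 different light chains (IGKV4-57, IGKV10-96, IGKV3-7 and IGKV3-2, in this order).
5xFAD sCLN cell 1: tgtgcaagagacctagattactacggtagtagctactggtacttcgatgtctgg
5xFAD sCLN cell 2: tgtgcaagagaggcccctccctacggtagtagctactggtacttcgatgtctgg
5xFAD sCLN cell 3: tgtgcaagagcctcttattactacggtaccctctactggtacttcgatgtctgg
5xFAD sCLN cell 4: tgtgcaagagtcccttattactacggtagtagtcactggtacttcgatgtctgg
The 4 cells share their ends, from IGHV3-6 and IGHJ1, and differ in the middle, where D and N bases lie. A group of the 5xFAD dCLN with IGHJ1 and 57 bases had 4 IgM cells, 3 junctions and 3 light chains. Clones with differing light chains, 16 in all, are included in the counts above.

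No IGHV3 junction was found in more than 1 of the 6 libraries (0 junctions). The WT iLN and the mixed library shared 1, with IGHV3-6, IGHJ1 and different light chains (IGKV8-21 and IGKV3-2).
Shared junction: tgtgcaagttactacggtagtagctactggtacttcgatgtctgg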

How the data were processed

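The libraries were made with a Chromium 5′ V(D)J kit, per the labels' protocols. The submitters' processing notes list mm10, Cell Ranger 6.0.1 and Seurat 4.1.0 with no role for any of them. The germline set is not given in the sources used here. Per the file headers, the deposited tables give UMIs and reads of every contig as counts, V identity as a fraction, and lengths of the junction and N regions in bases.

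Cells with 1 productive heavy chain were kept, and no doublet caller was run. Mutation was the percent of aligned V bases that differ from the deposited germline, without gaps. Shares have exact Clopper-Pearson 95% intervals, differences square-and-add intervals, and a count of 0 the limit of 3 counts. Libraries were compared by exact two-sided sign-flip tests over 3 nodes or over 6 differences within libraries, with Benjamini-Hochberg adjustment. A gene was called between genotypes when the exact intervals stood apart. The mutation counter, clones, intervals and test were checked on simulated data (Python 3.11.15, scipy 1.17.1). Alternatives varied the cell filter, repeated cells, V calls, clone rule and libraries.

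The named genes were all members, isotypes and J genes, the 3 most used D genes, the 5 most used light chain V genes and those of 1 sign in all 6 libraries. The rule also took IGHV3 clones of 3 or more cells, clones with a switched cell, junctions shared between libraries, and the 3 other V genes most like the family in share. Members and lists were chosen with earlier results of these data known. The mixed library entered no comparison.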

Additional observations from a re-analysis of the deposited data

Results flagged for a closer look

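Among 765 barcodes with several heavy chains, which entered only the alternative that kept such cells, 83 held an IGHV3 contig (10.8%, exact 95% interval 8.73% to 13.3%). Each of these barcodes carried at least 2 heavy chains, so the share per barcode cannot be set against that of cells with 1 heavy chain. Per heavy chain contig, IGHV3 made up 85 of 1530 (5.56%, 4.46% to 6.82%), beside 4.39% of the cells with 1 heavy chain. Contigs of 1 barcode are not independent, and the difference was not tested. In the mixed library of all nodes and both genotypes, which entered no comparison, 105 of 2488 cells with 1 heavy chain were IGHV3 cells (4.22%, 3.46% to 5.09%).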

How the results depend on the processing

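Each of 30 results was recomputed under alternatives, 343 values in all. Of these, 320 kept their direction and side of the 0.05 threshold, kept their direction where that alone was judged, or stayed within set limits. Direction alone was judged for kappa position with a library left out and for the mean share with a node left out. The exact sign-flip p of kappa position then rose from 0.0312 to 0.0625, the smallest possible with 5 libraries. That p was not adjusted. All other tested results, judged on adjusted p-values apart from the mean share, were above 0.05 at the outset. Among them, N bases, IGKV3 and the IGHJ2 share of IGHV3-1 against IGHV3-6 had the same exact sign-flip p of 0.0312 before adjustment. With 5 libraries none could fall below 0.05. The mean 5xFAD minus WT share was -0.0108 points with at least 3 heavy UMIs, -0.0589 with exactly 1 light chain and -0.0167 without the IGHV3-3 clone, and -0.294 to 0.301 when each node was left out. The IGHJ3 difference was 0.0166 with cells of several heavy chains kept. Pairs of a gene and a node called fell from 2 to 1 with at least 3 UMIs, with each clone counted once and with identical barcodes counted as 1 cell. Light chain genes of 1 sign in all libraries numbered 6, not 3, at a 0.5% filter, and 3 to 6 when a library was left out. Both rules are looser: the lower filter takes in more genes, and a library left out asks for 1 sign in the remaining libraries only. The cause of the other changes was not tested. Over the libraries left out in turn, ranges that changed sign were -0.738 to 0.107 (switched share), -0.265 to 1.20 (mutation of switched cells), -2.55 to 0.562 (IGHJ3), -0.0989 to 2.08 (lambda) and -0.0713 to 3.05 points (clones). IGHJ1 stayed at 4.33 to 8.38 points, N bases at -0.597 to -0.457, IGKV3 at 4.27 to 5.78 points and kappa position at -214 to -173 kb. The alternatives without the IGHV3-3 clone, without shared barcodes and all of those for IGKV3, IGHV3-1 against IGHV3-6 and kappa position were chosen after seeing the data. The tests pair libraries by node or groups within a library, and no fit by replicate number was made because the labels give none. With 88 to 191 IGHV3 cells per library, counting error limits every share.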

Other observations

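In the mixed library several measures had the direction seen across the 6 libraries, as values with no test. IGHJ1 was joined to 29.5% of its 105 IGHV3 cells and 20.4% of its 2383 other IGHV cells, and IGHJ4 to 17.1% and 23.5%. N bases averaged 6.13 and 7.04. The kappa V genes of 82 IGHV3 cells lay 1207 kb from IGKJ1 on average and those of other IGHV cells 1453 kb. Switched cells were 5 of 104 IGHV3 cells (4.81%) and 164 of 2335 others (7.02%). Other measures went the opposite way to the 6 libraries. Mean V mutation was 1.29% in the 5 switched IGHV3 cells and 2.29% in the 164 others. Cells with a light chain were 100% of IGHV3 cells and 99.3% of the others. A clone of 3 IGHV3-3 cells with IGHJ4 had identical heavy and light junctions and 0 mutation.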
